A study of Mus musculus with 10 samples.

Results

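The genes described here are 36 centromere and kinetochore genes, which encode the proteins that assemble on the centromeric DNA of a chromosome and attach it to the spindle. They were chosen by name, as the rows of both liver tables whose Ensembl gene identifiers carry the listed mouse symbols, and all 36 were found among the 55487 gene identifiers of each table. All 36 are annotated as protein coding, and all 36 passed the filter on low counts in both tables. They were sorted into 8 groups by role: CENP-A and its loading factors, the inner kinetochore network, the NDC80 complex, the MIS12 complex, KNL1 and its partner ZWINT, the corona and motor proteins, the SKA complex and the shugoshins.

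Liver RNA was sequenced after partial hepatectomy (PHx), an operation that removes most of the liver and sets the remnant to regrow, in 2 experiments on mice. In the diet experiment, male C57BL/6J mice aged 8 weeks received a high-fat diet (HFD) or regular chow for 7 days and then PHx, and livers were taken 40 hours later. In the inhibitor experiment, mice labelled with the same strain, sex and age received SSO at 40 mg/kg or the solvent (vehicle) 1 day before PHx, and livers were collected at 48 hours. All 4 groups therefore carry PHx, none carries an altered allele, and no liver without surgery was part of these tables. The labels give SSO by this abbreviation alone; it is the usual short name of sulfosuccinimidyl oleate, which blocks the fatty acid transporter CD36. The labels give 3 mice per group in the diet experiment and 8 in the inhibitor experiment. For the inhibitor experiment they do not state whether a library holds 1 animal or a pool. Each group has 1 sample in the labels used here, and 1 library per group was matched to it, so 4 libraries are described. The tables hold further columns for these groups, which match no sample in those labels and entered no value given here. Outcomes of earlier fits over all columns, not repeated here, are given in words only. With 1 library per group no difference has a replicate check: each ratio compares a pair of libraries, not the conditions, and no test between conditions was made with these 4 libraries. The intervals given with ratios cover counting error only, and the spread between animals was not measured here.

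The centromere is marked by nucleosomes that hold the histone H3 variant CENP-A, and a constitutive network of inner kinetochore proteins sits on them through the whole cell cycle. In mitosis the outer kinetochore assembles on that platform and binds microtubules, first through lateral contacts with motor proteins of the corona and then end-on through the NDC80 and SKA complexes, while shugoshins protect the cohesion of sister centromeres. Hepatocytes of the adult liver rarely divide, and after PHx they re-enter the cell cycle and pass through DNA synthesis and mitosis within the first days. Transcripts of many mitotic genes are periodic and peak in G2 and mitosis.

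The chow, HFD, vehicle and SSO libraries held 36.7, 32.0, 29.8 and 30.4 M counts. Levels are given as CPM, the count relative to a library size scaled by the trimmed mean of M-values (TMM). No member had 0 counts in any of the 4 libraries; the lowest had 2 counts (Cenpp in the chow and in the SSO library). Hepatocyte markers, albumin (Alb) among them, summed to 56200 CPM or more in every library. Both inhibitor libraries went against their label of male mice: Xist stood at 1050 and 1610 CPM and the Y-linked Ddx3y at 0 counts, which allows up to 0.0975 and 0.102 CPM, whereas the chow and HFD libraries held 61.9 and 55 CPM of Ddx3y. Mitochondrially encoded genes took 7.88% and 6.6% of the counts in the chow and HFD libraries, and 9.15% and 17.6% in the vehicle and SSO libraries. The part of that share in the results was not tested.

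The promoters of the genes are shown because the genes stood on the same side of their control library in such number. Promoter windows of 300 bases, from 250 before to 50 after the annotated start, were found in RefSeq (GRCm38.p6) for 32 of the 36 genes, all but Spc24, Nsl1, Zwilch and Ska1. The motifs searched on both strands were the cell-cycle genes homology region (CHR) in its form TTTGAA and its variant form TTTAAA, to which MuvB-containing complexes of late cell-cycle genes bind, the NF-Y site CCAAT, the E2F-like string TTCCCGC, and a further E2F-like string, TTTGGCG. A CHR form was present in 17 of 32 promoters (53.1%), against 27.8% of the 27025 promoters in the whole table, and CCAAT in 23 of 32 promoters (71.9%) against 37.9%. Both together occurred in 13 of 32 promoters (40.6%) against 10.9%, and TTCCCGC in 9 of 32 promoters (28.1%) against 4.66%. The longer string TTTCCCGC, which always contains TTCCCGC, was found in 3 of 32 promoters (9.38%) against 1.11%, and TTTGGCG in 1 of 32 (3.12%) against 1.59%. Of the genes with a window, 28 were over 2-fold higher in the HFD library than in the chow library and 4 were not. A CHR form was present in 15 of the 28 and 2 of the 4 (53.6% and 50%). CCAAT was present in 20 of the 28 and 3 of the 4 (71.4% and 75%). These counts describe letters in a window and not binding.

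The 6 windows printed here were chosen after the expression values were seen, to set promoters of genes with a large ratio in the diet experiment beside those of a pair with a ratio near 1. Capitals mark a match to either CHR form or to CCAAT on either strand, so that the NF-Y site on the opposite strand reads ATTGG. Each is written 5′ to 3′ in the direction of its gene. The positions are Cenpa at chr5:30666636-30666935 on the plus strand, Cenpe at chr3:135212313-135212612 on the plus strand, Spc25 at chr2:69206164-69206463 on the minus strand, Nuf2 at chr1:169531415-169531714 on the minus strand, Zwint at chr10:72654596-72654895 on the plus strand and Mis12 at chr11:71019361-71019660 on the plus strand.
The promoters of Cenpa, Cenpe and Spc25, whose transcripts were higher in the HFD library, each held a CHR form and CCAAT.
Cenpa: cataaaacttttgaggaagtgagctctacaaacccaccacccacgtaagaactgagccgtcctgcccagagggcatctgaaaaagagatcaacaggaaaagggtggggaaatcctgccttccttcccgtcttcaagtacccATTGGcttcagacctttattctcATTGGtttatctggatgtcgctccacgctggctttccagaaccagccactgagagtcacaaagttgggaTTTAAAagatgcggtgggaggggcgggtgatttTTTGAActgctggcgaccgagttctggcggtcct
Cenpe: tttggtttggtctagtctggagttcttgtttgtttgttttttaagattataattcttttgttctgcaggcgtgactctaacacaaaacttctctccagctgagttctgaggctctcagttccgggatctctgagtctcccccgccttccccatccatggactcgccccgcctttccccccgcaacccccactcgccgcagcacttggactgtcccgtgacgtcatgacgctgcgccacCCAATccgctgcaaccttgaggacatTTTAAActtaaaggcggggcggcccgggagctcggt
Spc25: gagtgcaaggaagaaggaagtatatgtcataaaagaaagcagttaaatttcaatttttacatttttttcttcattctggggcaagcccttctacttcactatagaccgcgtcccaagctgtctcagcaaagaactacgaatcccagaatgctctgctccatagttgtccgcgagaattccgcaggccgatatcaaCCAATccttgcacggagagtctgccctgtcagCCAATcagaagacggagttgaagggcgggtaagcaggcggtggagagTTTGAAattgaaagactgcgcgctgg
The promoter of Nuf2, which was also higher in the HFD library, held none of the 3 strings in this window.
Nuf2: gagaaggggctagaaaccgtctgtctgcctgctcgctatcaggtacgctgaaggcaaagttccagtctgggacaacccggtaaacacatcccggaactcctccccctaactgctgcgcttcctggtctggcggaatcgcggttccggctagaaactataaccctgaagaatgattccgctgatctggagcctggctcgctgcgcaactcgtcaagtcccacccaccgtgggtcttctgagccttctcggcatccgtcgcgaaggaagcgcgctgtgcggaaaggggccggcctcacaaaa
Zwint held TTTAAA and CCAAT and Mis12 held 4 matches to CCAAT without a CHR form, and neither transcript differed by 2-fold between the chow and HFD libraries.
Zwint: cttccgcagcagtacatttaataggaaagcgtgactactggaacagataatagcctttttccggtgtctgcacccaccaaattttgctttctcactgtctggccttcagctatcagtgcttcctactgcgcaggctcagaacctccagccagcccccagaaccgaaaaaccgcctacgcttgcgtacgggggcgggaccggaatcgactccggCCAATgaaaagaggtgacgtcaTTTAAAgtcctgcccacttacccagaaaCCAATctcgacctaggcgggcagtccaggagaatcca
Mis12: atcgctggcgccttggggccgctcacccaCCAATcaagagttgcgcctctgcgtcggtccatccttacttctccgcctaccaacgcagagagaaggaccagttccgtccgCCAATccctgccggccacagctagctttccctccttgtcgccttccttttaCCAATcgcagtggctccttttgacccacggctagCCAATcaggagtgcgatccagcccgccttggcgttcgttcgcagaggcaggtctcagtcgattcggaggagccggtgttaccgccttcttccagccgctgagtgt

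The diet experiment asks how a week of HFD before PHx altered the transcripts of the regenerating liver at 40 hours. Kinetochore and centromere transcripts were higher in the HFD library: 32 of the 36 genes were over 2-fold higher and 0 over 2-fold lower than in the chow library, against 10.6% and 8.94% of the 15980 genes compared. The median log2 ratio of the 36 genes was 3.30, against 0.00 for all genes. The 4 genes within 2-fold were Hjurp, Cenpo, Mis12 and Zwint, and the ratio of Mis12 was 0.998. This count describes 1 pair of libraries and should not be read as the number of genes that differ between the diets. An earlier edgeR fit, not repeated here, took all columns of the table as replicates. It called clearly fewer of the 36 genes higher, and none lower. Summed over all 36 genes, the level was 385 CPM in the chow library and 1020 CPM in the HFD library. Without Hjurp, the gene of highest level, the sum was 159 and 593 CPM. In bulk liver, fewer cells of a type and less RNA per cell cannot be told apart.

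**Figure D1:**
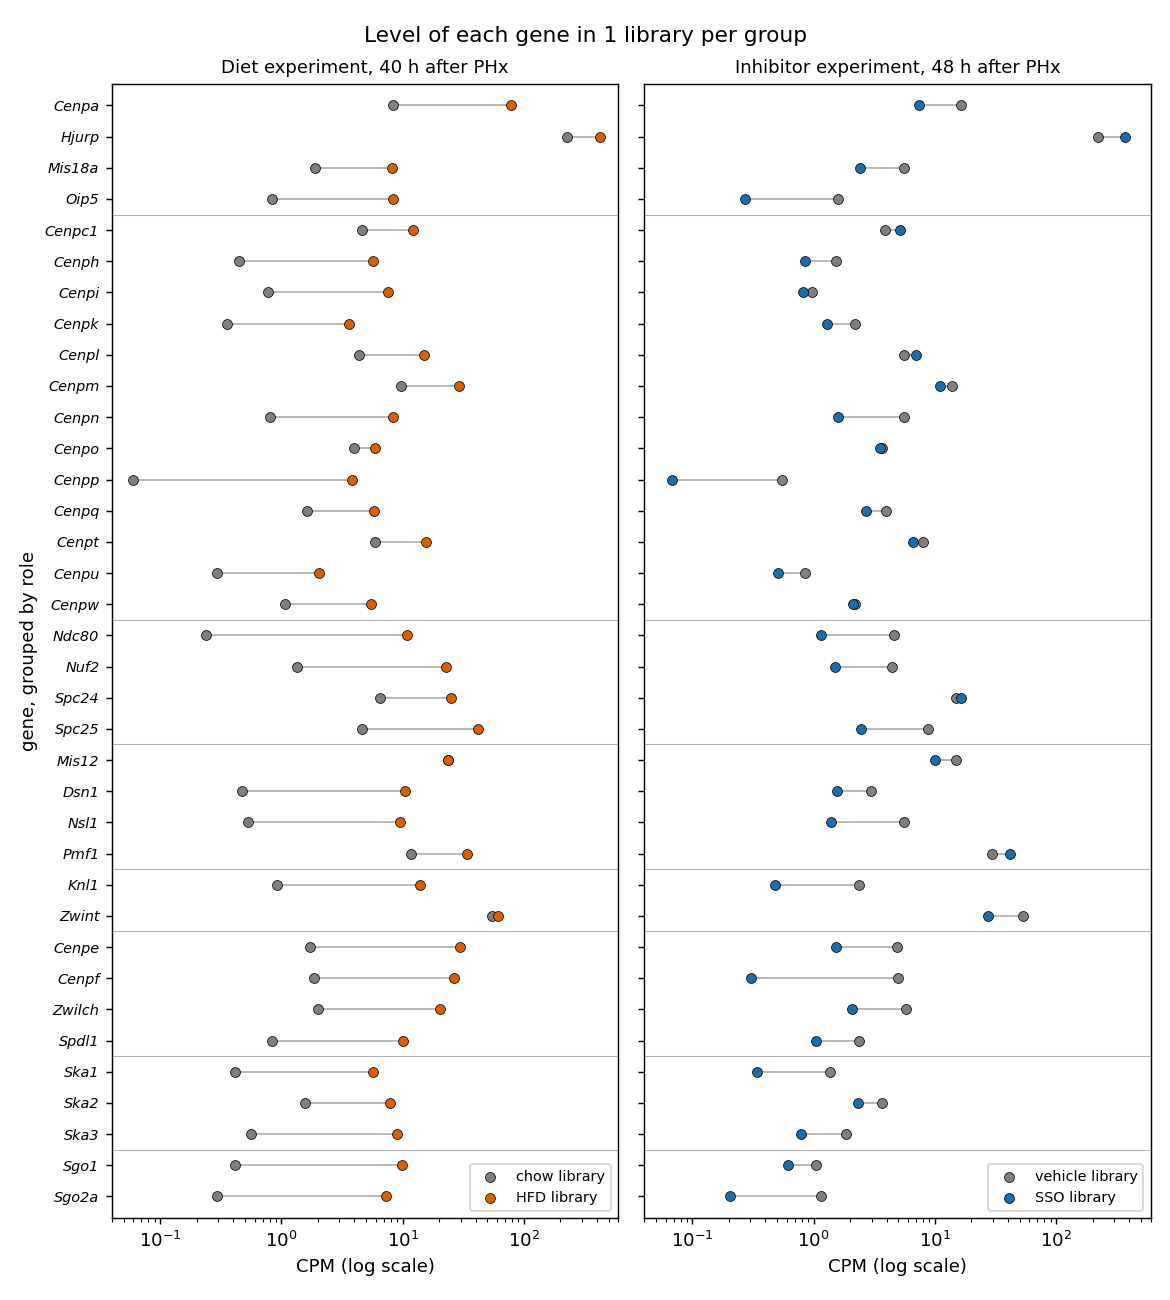
CPM (log scale) of each of the 36 genes, ordered by role, in the chow and HFD libraries (left) and in the vehicle and SSO libraries (right), with 1 library per group and therefore no error bar. In the diet experiment 32 genes lie over 2-fold to the right in the HFD library, and in the inhibitor experiment 17 lie over 2-fold to the left in the SSO library, in a single pair of libraries each.

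Among CENP-A and its loading factors, 3 of 4 genes were over 2-fold higher in the HFD library. Cenpa (ENSMUSG00000029177, chromosome 5, 30666777 to 30674830) encodes the histone variant itself and stood at 8.24 CPM in the chow library (278 counts) and 78.8 CPM in the HFD library (2740 counts). The HFD library was higher by 9.57-fold (95% interval 8.46 to 10.9). Oip5 (ENSMUSG00000072980, chromosome 2, 119609512 to 119618469), also known as MIS18 beta, belongs to the MIS18 complex that readies centromeres for new CENP-A; it measured 0.83 CPM in the chow library (28 counts) and 8.37 CPM in the HFD library (291 counts), a ratio of 10.1-fold (95% interval 6.84 to 15.5). Oip5 shares 9.7% of its exon length with Nusap1 on the other strand, and the strand setting of the counting is not known. The MIS18 partner of Oip5, Mis18a, went in the same direction with a smaller ratio, 4.32-fold (95% interval 3.29 to 5.76). Hjurp (ENSMUSG00000044783, chromosome 1, 88262471 to 88277633), the chaperone that deposits CENP-A, stood at 226 CPM in the chow library (7620 counts) and 425 CPM in the HFD library (14753 counts). Its ratio was 1.88-fold (95% interval 1.83 to 1.93), under 2-fold.

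In the inner kinetochore network, which bridges CENP-A nucleosomes and the outer kinetochore, 12 of 13 genes were over 2-fold higher in the HFD library, with ratios from 2.61 for Cenpt to 64.1 for Cenpp. Cenpc1 (ENSMUSG00000029253, chromosome 5, 86012024 to 86065583) encodes CENP-C, the scaffold that contacts both CENP-A and the MIS12 complex, and measured 4.62 CPM in the chow library (156 counts) and 12.1 CPM in the HFD library (421 counts). It was among the smaller differences of the network, at 2.62-fold (95% interval 2.18 to 3.17). Cenpt, which offers a second attachment point for NDC80, had 200 and 538 counts in the chow and HFD libraries, a ratio close to that of Cenpc1, and its histone-fold partner Cenpw had 36 and 190 (5.12-fold).

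The subcomplex of CENP-H, CENP-I, CENP-K and CENP-M showed unequal ratios. Cenph had 15 and 197 counts in the chow and HFD libraries (12.8-fold (95% interval 7.54 to 23.2)), Cenpi 26 and 261 (9.75-fold (95% interval 6.5 to 15.2)) and Cenpk 12 and 125 (10.1-fold (95% interval 5.59 to 20.1)). Cenpm measured 9.6 CPM in the chow library (324 counts) and 29 CPM in the HFD library (1009 counts), and its ratio was lower, 3.02-fold (95% interval 2.67 to 3.44). The interval of Cenpm did not reach those of its 3 partners. Cenpn and Cenpl form the pair that reads the CENP-A nucleosome and joins it to the network; their ratios were 10.4-fold (95% interval 7 to 16) and 3.4-fold (95% interval 2.83 to 4.12).

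In the CENP-O, CENP-P, CENP-Q and CENP-U branch, which receives mitotic kinases at the inner kinetochore, Cenpp had the highest ratio of all 36 genes but rests on 2 counts in the chow library against 132 in the HFD library, so that its interval ran from 17.4 to 535. Cenpq and Cenpu were higher by 3.58-fold (95% interval 2.65 to 4.92) and 6.89-fold (95% interval 3.54 to 15). Cenpo was within 2-fold, at 1.47-fold (95% interval 1.18 to 1.85). Cenpo, Cenpp and Cenpu share 22.5%, 12.6% and 26.7% of their exon length with genes on the other strand, and since the strand setting of the counting is not known, their levels are uncertain.

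All 4 genes of the NDC80 complex, the main microtubule coupler of the kinetochore, were over 2-fold higher in the HFD library. Ndc80 (ENSMUSG00000024056, chromosome 17, 71496100 to 71526857), which gives the complex its microtubule-binding head together with NUF2, measured 0.237 CPM in the chow library (8 counts) and 10.9 CPM in the HFD library (378 counts), or 45.9-fold (95% interval 23 to 107). Nuf2 (ENSMUSG00000026683, chromosome 1, 169497934 to 169531464) measured 1.33 CPM in the chow library (45 counts) and 22.8 CPM in the HFD library (792 counts), or 17.1-fold (95% interval 12.7 to 23.6). The other end of the complex, which anchors it to the inner side, is made by SPC24 and SPC25. Spc25 (ENSMUSG00000005233, chromosome 2, 69193895 to 69206194) stood at 4.65 CPM in the chow library (157 counts) and 41.8 CPM in the HFD library (1451 counts), or 8.97-fold (95% interval 7.61 to 10.6). Spc24 had the smallest ratio of the 4, 3.88-fold (95% interval 3.35 to 4.52).

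The MIS12 complex links the inner kinetochore to NDC80 and KNL1, and 3 of its 4 genes were over 2-fold higher. Dsn1 had 16 and 363 counts in the chow and HFD libraries (22-fold (95% interval 13.4 to 39)), Nsl1 18 and 329 (17.7-fold (95% interval 11.1 to 30.3)) and Pmf1 396 and 1186 (2.91-fold (95% interval 2.59 to 3.27)). Mis12 (ENSMUSG00000040599, chromosome 11, 71019611 to 71027371) was level, at 23.4 CPM in both libraries (ratio 0.998, 95% interval 0.904 to 1.1). It shares 7.7% of its exon length with Derl2 on the other strand, and the strand setting of the counting is not known. The subunits of the complex therefore ranged from no measured difference to 22-fold. Knl1 (ENSMUSG00000027326, chromosome 2, 119047119 to 119105501), the scaffold that recruits the BUB checkpoint kinases, measured 0.919 CPM in the chow library (31 counts) and 13.9 CPM in the HFD library (483 counts), or 15.1-fold (95% interval 10.5 to 22.5). Zwint (ENSMUSG00000019923, chromosome 10, 72654845 to 72674964), which binds KNL1, was nearly level at 54.5 CPM in the chow library (1839 counts) and 60.5 CPM in the HFD library (2101 counts), a ratio of 1.11-fold (95% interval 1.04 to 1.18).

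The 4 corona and motor genes were all over 2-fold higher in the HFD library. Cenpe (ENSMUSG00000045328, chromosome 3, 135212537 to 135273611), the kinesin that carries chromosomes towards the spindle equator, measured 1.72 CPM in the chow library (58 counts) and 29.4 CPM in the HFD library (1022 counts), or 17.1-fold (95% interval 13.1 to 22.7). Cenpf (ENSMUSG00000026605, chromosome 1, 189640606 to 189688086), a large protein of the fibrous corona, measured 1.84 CPM in the chow library (62 counts) and 26.6 CPM in the HFD library (924 counts), or 14.5-fold (95% interval 11.2 to 19). The ratios of Spdl1, the dynein adaptor Spindly, and of Zwilch, a subunit of the ROD-ZW10-Zwilch (RZZ) complex on which the corona is built, were 12.2-fold (95% interval 8.28 to 18.6) and 10.2-fold (95% interval 7.9 to 13.3).

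All 3 SKA genes, whose products load onto NDC80 and stabilise end-on attachment, were over 2-fold higher as well. Ska1 (ENSMUSG00000036223) had 14 and 196 counts in the chow and HFD libraries (13.6-fold (95% interval 7.91 to 25.3)) and Ska3 19 and 311 (15.9-fold (95% interval 10 to 26.8)). Ska2 had the smallest ratio of the 3, 4.98-fold (95% interval 3.7 to 6.82), and 10.1% of its exon length overlaps a gene on the other strand. Of the shugoshins, Sgo1 (ENSMUSG00000023940, chromosome 17, 53674786 to 53689333), which shields centromeric cohesin until anaphase, measured 0.415 CPM in the chow library (14 counts) and 9.93 CPM in the HFD library (345 counts), or 23.9-fold (95% interval 14.1 to 44.2). Sgo2a, best known for protecting cohesion in meiosis, had 10 and 254 counts, or 24.7-fold (95% interval 13.2 to 52.1). Sgo2a shares 35% of its exon length with Kctd18 on the other strand, so its level is uncertain.

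The inhibitor experiment asks what SSO given before PHx did to the same transcripts at 48 hours. Here most of the genes were lower in the SSO library. Past 2-fold, 17 of the 36 genes were lower and 0 higher than in the vehicle library, against 8.22% and 11.2% of the 16252 genes compared. This count should not be read as an effect of SSO. The same kind of earlier edgeR fit over all columns of this table was not repeated here. It called none of the 36 genes at an adjusted p under 0.05. DESeq2, edgeR with no filter on low counts, and edgeR without 1 vehicle library not shown here each called some of them, nearly all lower. How many genes were called depended strongly on the fit. Those fits are not among the values given here, and no conclusion on SSO is drawn from them. The ratio was under 1 for 31 genes and above 1 for 5, which were Hjurp, Cenpc1, Cenpl, Spc24 and Pmf1. The median log2 ratio was -0.94, against 0.01 for all genes. Summed over all 36 genes, the level was higher in the SSO library, at 465 CPM in the vehicle library and 538 CPM in the SSO library. Without Hjurp, the gene of highest level, the sum was lower in the SSO library, at 244 and 166 CPM. Counts were low in the SSO library, where 4 genes (Oip5, Cenpp, Cenpf and Sgo2a) had fewer than 10.

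Cenpa measured 16.3 CPM in the vehicle library (502 counts) and 7.41 CPM in the SSO library (218 counts), and the SSO library was lower by 2.2-fold (95% interval 1.88 to 2.6). Oip5 and Mis18a, both of the MIS18 complex, were lower by 5.86-fold (95% interval 2.75 to 14.3) and 2.32-fold (95% interval 1.75 to 3.1). Hjurp was on the other side, at 221 CPM in the vehicle library (6808 counts) and 371 CPM in the SSO library (10926 counts), higher by 1.68-fold (95% interval 1.63 to 1.73). The chaperone and the histone variant it deposits thus stood on opposite sides in this pair of libraries, and on the same side in the diet pair.

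Most of the inner kinetochore network lay within 2-fold. Cenpp and Cenpn were the 2 of 13 genes past it, lower by 8.13-fold (95% interval 1.93 to 72.6) on 17 and 2 counts and by 3.5-fold (95% interval 2.52 to 4.94) on 172 and 47 counts. Cenpc1 measured 3.9 CPM in the vehicle library (120 counts) and 5.13 CPM in the SSO library (151 counts), a ratio of 1.32-fold (95% interval 1.03 to 1.69), and Cenpl had a ratio of 1.27-fold (95% interval 1.03 to 1.57). Cenph and Cenpk were lower by 1.8-fold (95% interval 1.08 to 3.05) and 1.69-fold (95% interval 1.12 to 2.58), and Cenpq by 1.48-fold (95% interval 1.1 to 1.99). The counting intervals of Cenpi, Cenpo, Cenpu and Cenpw included 1. Cenpi had 30 and 24 counts in the vehicle and SSO libraries and Cenpu 26 and 15, so their differences could not be told from counting error. Cenpo had 112 and 103 counts (ratio 0.961, 95% interval 0.728 to 1.27) and Cenpw 68 and 62 (ratio 0.953, 95% interval 0.664 to 1.36). Cenpm and Cenpt were lower by 1.25-fold and 1.22-fold.

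In the NDC80 complex 3 of 4 genes were over 2-fold lower in the SSO library. Ndc80 measured 4.62 CPM in the vehicle library (142 counts) and 1.16 CPM in the SSO library (34 counts), lower by 4-fold (95% interval 2.73 to 5.99). Nuf2 had 137 and 44 counts in the vehicle and SSO libraries (2.98-fold (95% interval 2.11 to 4.29) lower) and Spc25 270 and 72 (3.59-fold (95% interval 2.76 to 4.72) lower). Spc24, the partner of SPC25, had 462 and 482 counts and a ratio of 1.09-fold (95% interval 0.958 to 1.24), an interval that includes 1. In the MIS12 complex Nsl1 was lower by 3.97-fold (95% interval 2.81 to 5.73), Dsn1 by 1.91-fold (95% interval 1.33 to 2.79) and Mis12 by 1.48-fold (95% interval 1.27 to 1.71). Pmf1 was higher, at 29.3 CPM in the vehicle library (902 counts) and 41.4 CPM in the SSO library (1219 counts), by 1.41-fold (95% interval 1.29 to 1.54). Knl1 had 73 and 14 counts and was lower by 4.99-fold (95% interval 2.79 to 9.57). Zwint, nearly level in the diet pair, measured 52.9 CPM in the vehicle library (1627 counts) and 27.6 CPM in the SSO library (813 counts) and was lower by 1.91-fold (95% interval 1.76 to 2.09).

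All 4 corona and motor genes were over 2-fold lower in the SSO library. Cenpe measured 4.84 CPM in the vehicle library (149 counts) and 1.53 CPM in the SSO library (45 counts), lower by 3.17-fold (95% interval 2.26 to 4.53). Cenpf had the largest difference of the 36 genes, at 4.97 CPM in the vehicle library (153 counts) and 0.306 CPM in the SSO library (9 counts), lower by 16.3-fold (95% interval 8.35 to 36.3). Zwilch and Spdl1 were lower by 2.81-fold (95% interval 2.09 to 3.82) and 2.25-fold (95% interval 1.46 to 3.55). Of the SKA genes, Ska1 was lower by 4.02-fold (95% interval 1.98 to 8.98) on 42 and 10 counts and Ska3 by 2.37-fold (95% interval 1.44 to 4.03), while Ska2 was lower by 1.57-fold (95% interval 1.15 to 2.15). Sgo1 measured 1.04 CPM in the vehicle library (32 counts) and 0.612 CPM in the SSO library (18 counts), and the interval of its ratio included 1 (1.7-fold (95% interval 0.926 to 3.22) lower). Sgo2a had 35 and 6 counts and was lower by 5.58-fold (95% interval 2.32 to 16.2).

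**Figure D2:**
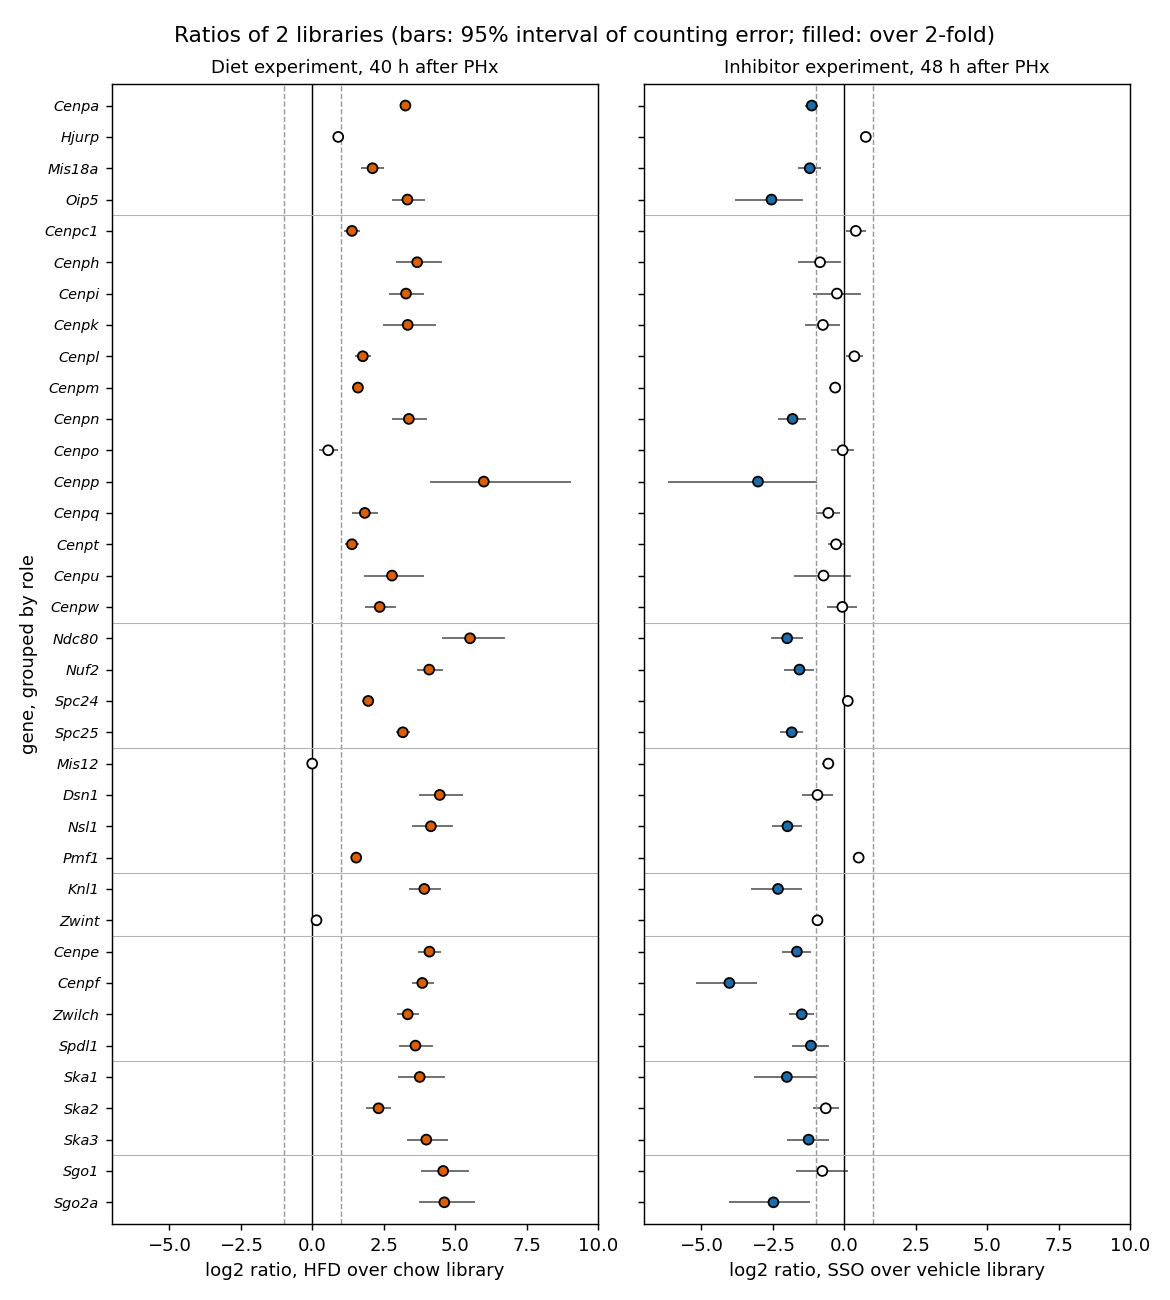
log2 ratio of each of the 36 genes, ordered by role, for the HFD over the chow library (left) and the SSO over the vehicle library (right); bars are 95% intervals of counting error, dashed lines mark 2-fold, and filled points lie past it. On the left 32 points are filled, all above 0, and on the right 17 are filled, all below 0; no error between animals is shown, since each group has 1 library.

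Set side by side, 30 of the 36 genes were higher in the HFD library and lower in the SSO library, as were 24.9% of the 15147 genes compared in both experiments. Past 2-fold in both, there were 17 of 36, against 2.1% of all genes. The genes over 2-fold lower in the SSO library were thus all among those over 2-fold higher in the HFD library. Since the latter were 32 of the 36, most of any 17 of the 36 genes would be among them. Hjurp, Cenpc1, Cenpl, Spc24 and Pmf1 were higher than control in both. Both counts rest on 1 pair of libraries per experiment, and with them the opposite direction, which was not tested. As said above, the 17 genes lower in the SSO library should not be read as an effect of SSO. The experiments share no library, and they differ in collection time and in the sex transcripts.

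Levels were compared between genes only after division by exon length, as CPM per kilobase of merged exon. Hjurp was the highest in every library, at 27.1 CPM per kilobase in the chow, 51 in the HFD, 26.6 in the vehicle and 44.6 in the SSO library. In the chow library it was followed by Zwint (12.3), Mis12 (7.8) and Cenpm (5.94), and the lowest was Cenpp (0.0231). In the HFD library the order behind Hjurp was Cenpm (18), Zwint (13.6), Cenpa (13.5) and Spc25 (13.1). Subunits of the NDC80 complex, which act in equal number in the assembled complex, were unequal in transcript level: the HFD library held 13.1 CPM per kilobase of Spc25, 9.8 of Spc24, 3.59 of Nuf2 and 1.68 of Ndc80. The merged exon length takes in all annotated isoforms and so lowers the value of genes with long alternative exons. It is 6493 bases for Ndc80 and 6341 for Nuf2, against 3188 for Spc25 and 2573 for Spc24. Division by it therefore widened the spread between the NDC80 subunits.

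Other genes of centromere, kinetochore and checkpoint function, 24 in number, were counted in the same way. In the diet experiment 18 of 24 were over 2-fold higher and 0 over 2-fold lower in the HFD library (median log2 ratio 3.28). Among those with the highest ratios were Kntc1, the ROD subunit of the RZZ complex, at 33.3-fold (95% interval 20.3 to 58.6), the checkpoint protein gene Bub1b at 25.8-fold (95% interval 18.5 to 37.1), and Kif2c, a microtubule-depolymerising kinesin, at 25.4-fold (95% interval 18.5 to 36). In the inhibitor experiment 15 of 24 were over 2-fold lower and 0 over 2-fold higher in the SSO library (median log2 ratio -1.30). The checkpoint kinase gene Ttk was the lowest, at 9.36-fold (95% interval 5.39 to 17.6) lower on 137 and 14 counts, followed by Knstrn, a spindle and kinetochore adaptor, at 7.69-fold (95% interval 5.25 to 11.6) lower.

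Genes of G2 and mitosis went with the 36. Mki67, Top2a, Ccnb1 and Cdk1 were higher in the HFD library by 13.7-, 19.3-, 20.9- and 18.1-fold, and lower in the SSO library by 1.97-, 3.23-, 8.44- and 6.43-fold. Of 7 genes of DNA replication (Mcm2 to Mcm7 and Pcna), 7 were over 2-fold higher in the HFD library with a median log2 ratio of 1.84, below that of the 36 genes, and 5 were over 2-fold lower in the SSO library with a median of -1.09.

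**Figure D3:**
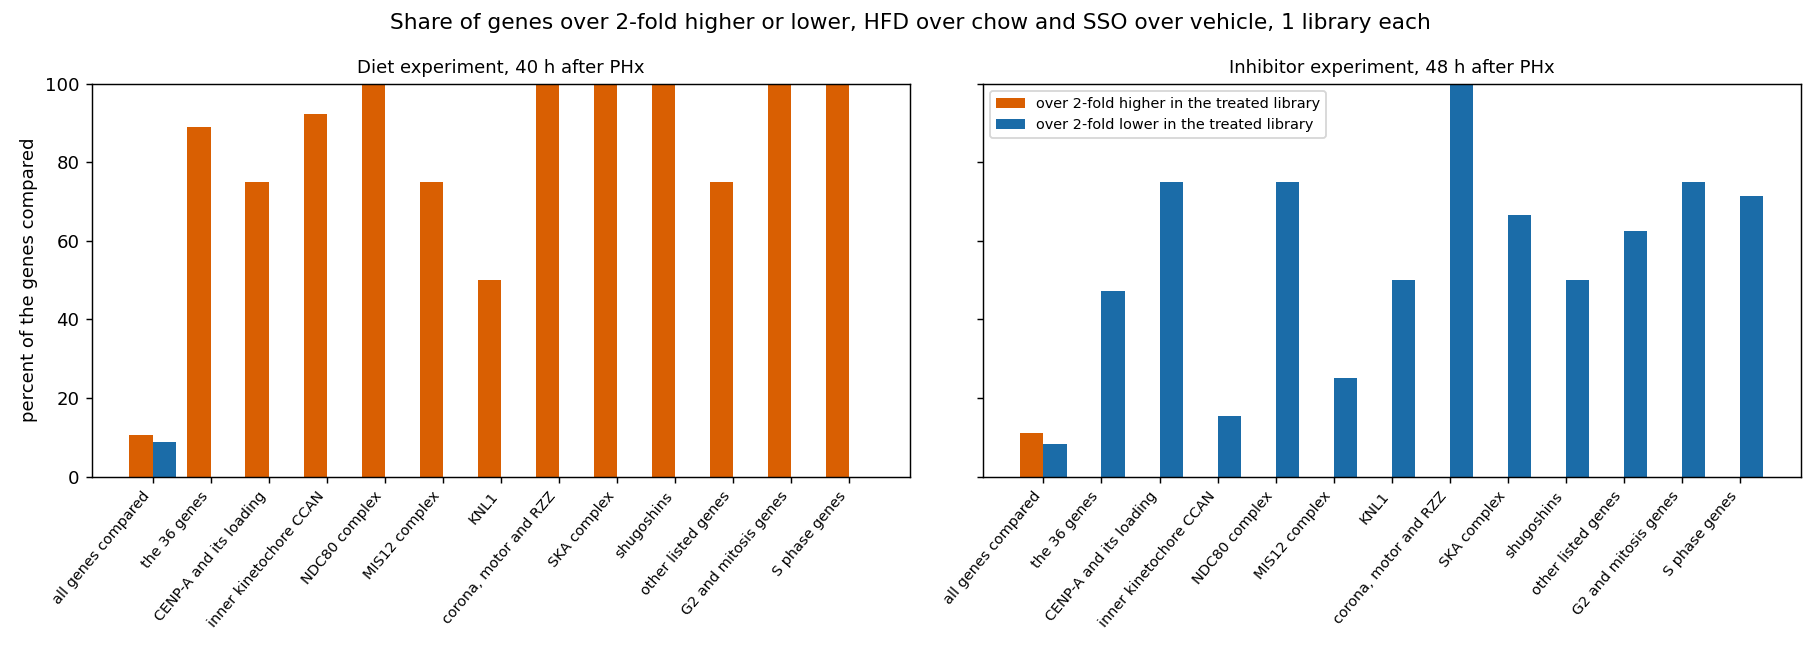
Percent of genes over 2-fold higher or lower in the HFD library against the chow library (left) and in the SSO library against the vehicle library (right), for all genes compared, the 36 genes, their 8 roles and the other lists; 1 library per group. On the left all genes stand at 10.6% higher and 8.94% lower, and on the right at 11.2% and 8.22%.

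Markers of other liver cell types were read in the same libraries. Kupffer cell and macrophage markers summed to 231 CPM in the chow and 310 CPM in the HFD library, with 0 of 7 past 2-fold, and to 98.4 CPM in the vehicle and 237 CPM in the SSO library, with 5 of 7 over 2-fold higher. Monocyte and neutrophil markers summed to 29.3 and 33 CPM in the chow and HFD libraries and 47.7 and 21 CPM in the vehicle and SSO libraries, and their members went both ways: in the SSO library 3 of 5 were over 2-fold higher and 2 over 2-fold lower. Lymphocyte markers summed to 1.27 and 2.13 CPM in the diet pair and 2.21 and 4.99 CPM in the inhibitor pair. Sinusoidal endothelium markers had 0 of 5 past 2-fold in either pair and cholangiocyte markers 0 of 4. Stellate cell markers had 0 of 5 past 2-fold in the diet pair and 1 of 5 in the inhibitor pair, lower in the SSO library. Erythroid markers summed to 458 and 166 CPM in the diet pair and 78.1 and 49.7 CPM in the inhibitor pair. Of the hepatocyte markers 2 of 7 were over 2-fold lower in the HFD library and 0 of 7 past 2-fold in the SSO library. The part of these cell types in the results was not tested.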

How the data were processed

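The authors deposited raw whole-number read counts for each Ensembl gene. Per the submitters' processing notes, the tools were HISAT2 2.2.1, featureCounts 2.0.2, Trim Galore 0.6.1 and DESeq2, and the build was GRCm38 (mm10); the labels' protocols state polyT selection. Whether counting used strand, how multi-mapping reads were treated and which annotation was used is not given in the sources used here. The labels hold 1 sample per group, numbered rep3 for diet and rep4 for inhibitor groups. The column whose name carries the group and that number was matched to it; the labels do not say whether the number marks this library or counts the group's libraries. The tables' other 10 columns of per-sample values match no sample in the labels used here. They entered no level, ratio or count given here, and only the earlier fits described in words used them. Symbols, coordinates (1-based, GRCm38) and merged exon lengths came from GENCODE M21, which matched 55227 of 55487 identifiers. Promoter windows came from RefSeq (GRCm38.p6).

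Each table was scaled on its own with edgeR 4.0.16 in R 4.3.3 (filterByExpr, TMM). A quasi-likelihood test across replicates had been planned; it was not fitted to the 1 matched library per group, and a gene was counted when the ratio of its scaled counts passed 2-fold. A count of 0 was set to 3 counts, and genes with at most 3 counts in both libraries were left out. The 95% interval of a ratio is the exact (Clopper-Pearson) interval of one count in the sum of both, from SciPy 1.17.1; it covers counting error only. The calculation was tried on simulated data that held counting error only, with changes larger than 2-fold in genes of higher count. Those data had no spread between animals, so the trial does not bear on that spread or on genes of low count. Alternatives were other scalings, no filter and leaving out mitochondrially encoded genes. All 36 genes are given with values; the 3 other genes named in the diet pair are among the 4 of largest ratio, of which 1 is not reported here, the rule for named genes having used p-values, and likewise the 2 in the inhibitor pair. The genes, lists and alternatives were chosen with earlier results of these data known, which included the columns not used here. The macrophage and single-cell data of the series were not used here.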

Additional observations from a re-analysis of the deposited data

How the results depend on the processing

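The count of 32 genes over 2-fold apart in the diet experiment was 32 with RLE scaling, 33 with library size alone, 32 without a filter on low counts and 32 without mitochondrially encoded genes, and that of 17 in the inhibitor experiment was 17, 19, 17 and 17. Every gene counted lay on the same side in each of these settings. Library size alone shifted the median log2 ratio of all genes by 0.24 in the diet experiment, and the split of all genes over 2-fold apart from 1688 higher and 1428 lower to 2294 and 1031; in the inhibitor experiment it was 1816 and 1336 against 1584 and 1536. The log2 ratio of Mis12 in the diet experiment, near 0, was 0.23 with library size alone. Without a filter, 4855 of all genes were over 2-fold apart in the diet experiment and 4924 in the inhibitor experiment, against 3116 and 3152. The planned DESeq2 test and the fits that leave out libraries were not run for the values given here. Only the columns matched to a sample were used for these, which leaves 1 library per group. Earlier fits of these kinds in the inhibitor experiment are given in words only and were not repeated. No paired analysis was made, because 1 library per group was used and the labels used here state no pairing. The spread between animals was not measured here, which limits every ratio; depth limits the genes of lowest count, such as Cenpp with 2 counts in the chow and 2 in the SSO library.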
